A study of Mus musculus with 24 samples.

Results

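The 4 keratin genes described here, Krt5, Krt14, Krt15 and Krt17, mark basal cells of stratified and pseudostratified epithelia. They were chosen by name, as 4 of the 35855 genes in the table and 4 of its 54 keratin genes, by a rule that uses no measured value but with earlier results of these data known. RNA was sequenced from 24 libraries, each from 1000 epithelial cells of the airway, sorted out of the trachea of naïve WT female C57BL/6 mice, with no age in the labels. The labels give 3 groups of 8 libraries. They are cells with high BCAM (labelled BCAM HI), cells with low BCAM (BCAM LO) and DIFFERENTIATED EPCS; BCAM is a laminin-binding adhesion molecule on the surface of basal cells, and the series title calls the sorted subsets basal. Each group has 5 libraries of batch 1 (replicates 1 to 5) and 3 of batch 2 (replicates 6 to 8), and the labels do not say what the batch number stands for. Nothing in the labels says whether libraries came from separate mice, so p-values measure the spread between these libraries, which may be technical.

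Keratins build intermediate filaments, the rope-like skeleton that lets an epithelial sheet withstand stretch. A filament forms only from pairs of a type I (acidic) and a type II (basic) keratin. Krt5 is the type II partner of basal cells, and Krt14, Krt15 and Krt17 are type I keratins that can pair with it. Luminal airway cells, such as secretory and ciliated cells, instead rely mainly on the type II keratin Krt8 and the type I keratins Krt18 and Krt19. In the trachea, Krt5 labels the basal layer broadly, Krt14 labels a subset that expands after injury, Krt15 is known from stem cell compartments of skin and oesophagus, and Krt17 is known from stressed and wounded keratinocytes.

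The type I members lie in one cluster and resemble each other, which limits how well short reads tell them apart. In GENCODE M21 coordinates (mouse build GRCm38), all 4 genes are on the minus strand: Krt5 (ENSMUSG00000061527, 9 exons) at chr15:101707070-101712898, Krt14 (ENSMUSG00000045545, 8 exons) at chr11:100203162-100207548, Krt15 (ENSMUSG00000054146, 8 exons) at chr11:100131758-100135928 and Krt17 (ENSMUSG00000035557, 8 exons) at chr11:100256217-100261029. Over the aligned coding sequence, Krt14 was 86.5% identical to Krt16, a keratin of activated keratinocytes, 84.1% to Krt17 and 73.3% to Krt15. The reads were pairs of 38 bases per end. Of all 38-base windows of the main Krt14 transcript, 23.0% also occur in a transcript of another gene, 15.7% in Krt16 and 7.35% in Krt17. That share was 13.9% for Krt5 (8.38% with Krt6a, its neighbour), 10.4% for Krt17 and 2.35% for Krt15.

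These 90-base coding windows from exon 3 are the stretch in which Krt14 and Krt17 are most alike; they are shown because a read from here can be assigned between that pair by its own sequence only where it covers the 1 base that differs. Capitals mark bases that differ from Krt14. On the minus strand of GRCm38, the windows are chr11:100204996-100205085 (Krt14), chr11:100259221-100259310 (Krt17), chr11:100247610-100247699 (Krt16) and chr11:100134223-100134312 (Krt15).
Krt14: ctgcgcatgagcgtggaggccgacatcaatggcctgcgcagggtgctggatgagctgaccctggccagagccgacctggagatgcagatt
Krt17: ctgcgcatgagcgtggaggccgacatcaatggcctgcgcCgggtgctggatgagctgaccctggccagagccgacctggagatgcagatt
Krt16: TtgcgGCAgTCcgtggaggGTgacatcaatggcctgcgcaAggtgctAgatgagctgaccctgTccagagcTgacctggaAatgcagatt
Krt15: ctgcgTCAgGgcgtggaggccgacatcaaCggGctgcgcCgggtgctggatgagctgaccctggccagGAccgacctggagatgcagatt

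A window of the same length in exon 4 shows where the members part, at chr11:100204705-100204794 (Krt14), chr11:100258481-100258570 (Krt17), chr11:100247386-100247475 (Krt16) and chr11:100133702-100133791 (Krt15). There Krt17 differs from Krt14 at 18 of 90 bases, Krt16 at 17 and Krt15 at 28.
Krt14: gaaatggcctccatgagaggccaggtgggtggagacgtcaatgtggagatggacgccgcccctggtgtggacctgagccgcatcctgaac
Krt17: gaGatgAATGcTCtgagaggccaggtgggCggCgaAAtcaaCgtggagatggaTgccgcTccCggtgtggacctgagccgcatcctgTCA
Krt16: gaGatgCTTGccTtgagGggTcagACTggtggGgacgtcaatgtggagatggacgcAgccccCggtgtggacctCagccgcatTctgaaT
Krt15: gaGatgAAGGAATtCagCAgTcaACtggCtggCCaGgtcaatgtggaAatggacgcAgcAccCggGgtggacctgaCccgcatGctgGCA

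Libraries held 1824619 to 4440072 estimated counts. Levels across libraries are given as CPM (counts relative to a library total scaled by TMM), and levels of different genes are compared as TPM, which accounts for transcript length. Where counts of different genes stand side by side, they are not corrected for length. TPM is a poorer scale across libraries here: 10 predicted genes with repeat-like transcripts held 5.80% to 27.3% of TPM in BCAM high libraries. They held 8.08% to 42.4% of it in BCAM low and, in differentiated libraries, 2.66% to 62.2%. On that scale the median of all genes was 0.26 higher in BCAM high than in BCAM low (log2, pseudocount 0.1). The differentiated libraries of batch 2 stood apart from those of batch 1. Their summed TPM of 7 secretory cell markers was 18290, 16960 and 123900 in differentiated 6, 7 and 8, against 302200 to 391000 in differentiated 1 to 5, and that of 5 thyroid markers was 14680, 27960 and 14660 against 3353 to 5923. Summed TPM of 3 parathyroid markers ran from 196.5 to 17240 in differentiated 1 to 5 and was 230, 1.69 and 0.0966 in differentiated 6, 7 and 8. The fold changes of the members against the differentiated group are therefore also given by batch or without differentiated 6 and 7, as are the counts of called genes.

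All 4 basal keratins were abundant or clearly detected in both BCAM groups, in the order Krt15, Krt5, Krt17, Krt14. In BCAM high, Krt15 averaged 2793 ± 655 TPM, Krt5 917 ± 236, Krt17 549 ± 128 and Krt14 120 ± 69.8 (SD, n = 8). In BCAM low the means were 2619 ± 384, 442 ± 99.1, 282 ± 118 and 27.1 ± 10.8 TPM in the same order (SD, n = 8). Krt15 held a median of 62.9% of the TPM of the 4 genes in BCAM high and 77.7% in BCAM low. Part of the Krt15 TPM was that of Krt15-202, a 689-base transcript annotated as a retained intron. Krt15-202 held 1078 of 2912 TPM in BCAM high 1 and 666 of 3321 in BCAM high 6. Each of the 12 pairwise steps of this order, 6 in each group, held beyond the spread between libraries. In 11 of them every library showed the same order (exact two-sided sign-flip test, BH-adjusted p = 0.00852, n = 8, from the smallest p the design allows, 0.0078). The exception was Krt5 over Krt17 in BCAM low, which held in 7 of 8 libraries (exact sign-flip test, BH-adjusted p = 0.0156). BCAM low 2 was the library with more Krt17 than Krt5.

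Between BCAM high and BCAM low, Krt14 was higher in BCAM high, and Krt5 was called higher but lost the call in several other settings. Krt17 lay at the threshold and Krt15 was not called. These comparisons used edgeR's quasi-likelihood test on counts, with batch as a covariate and Benjamini-Hochberg adjustment over the 12211 genes tested. Of the 4 members, 2 were called, both higher; over all genes 7.02% were called in either direction, 2.43% as higher and 4.59% as lower. A bulk library cannot tell fewer cells of a type from less RNA per cell, which holds for every level given here.

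Krt14, the basal type I keratin, ranged from 55.9 to 282 CPM in BCAM high (median 138) and from 10.7 to 45.2 in BCAM low (median 36.5). Every BCAM high library lay above every BCAM low library, and the highest values of BCAM high, 282 in replicate 8 and 220 in replicate 6, were in batch 2, as was the lowest, 55.9 in replicate 7. The log2 fold change was 1.98 (SE 0.31), a 3.95-fold difference (edgeR, adjusted p = 3.44e-04). Krt14 was called in batch 1 alone; in batch 2 alone the difference was 2.62 (SE 0.86) and was not called (edgeR, adjusted p = 0.251). Krt16, with which Krt14 shares most windows, held 132 counts in BCAM high and 47 in BCAM low, against 3977 and 981 for Krt14; the part of shared reads in the Krt14 values was not tested.

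Krt5, the type II partner, ranged from 1262 to 2135 CPM in BCAM high (median 1682) and from 701 to 1122 in BCAM low (median 973). Again the ranges did not overlap, although the gap was narrow, from 1122 in BCAM low 5 to 1262 in BCAM high 2. Non-overlapping TPM ranges with BCAM high above were found for 0.819% of genes tested. The log2 fold change of Krt5 was 0.84 (SE 0.24), 1.79-fold (edgeR, adjusted p = 0.0344). It missed the threshold on leaving out any 1 of 9 libraries: BCAM high 1, 3, 6, 7 or 8, or BCAM low 3, 6, 7 or 8, with adjusted p up to 0.0784. It also missed the threshold in 6 of 12 other settings, among them batch 1 alone (0.60; edgeR, adjusted p = 0.0952) and batch 2 alone (1.24; edgeR, adjusted p = 0.176).

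Krt17 ranged from 447 to 917 CPM in BCAM high (median 689) and from 226 to 716 in BCAM low (median 372). The groups overlapped, since BCAM low 2 at 716 lay within the BCAM high range. The log2 fold change was 0.79 (SE 0.24), close to that of Krt5, and its adjusted p of 0.0536 missed the threshold (edgeR). Without BCAM low 2 it was 0.94 and passed the threshold. Leaving out any of BCAM high 7 or differentiated 1, 3, 4, 6 or 7 also brought it past the threshold.

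Krt15 ranged from 2458 to 3782 CPM in BCAM high (median 2908) and from 3126 to 3950 in BCAM low (median 3476). The ranges overlapped, and the median was lower in BCAM high. The log2 fold change was -0.16 (SE 0.35; edgeR, adjusted p = 0.854), and on the TPM scale its sign turned, to 0.07. In batch 1 alone, Krt15 ranged from 2458 to 2989 CPM in BCAM high and from 3126 to 3539 in BCAM low. Its log2 fold change there was -0.30 (SE 0.09; edgeR, adjusted p = 0.0639), against -0.02 (SE 0.50; edgeR, adjusted p = 0.993) in batch 2 alone. Without differentiated 6 and 7 it was -0.18 (SE 0.13; edgeR, adjusted p = 0.454). Krt15 was called in none of these fits.

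**Figure D1:**
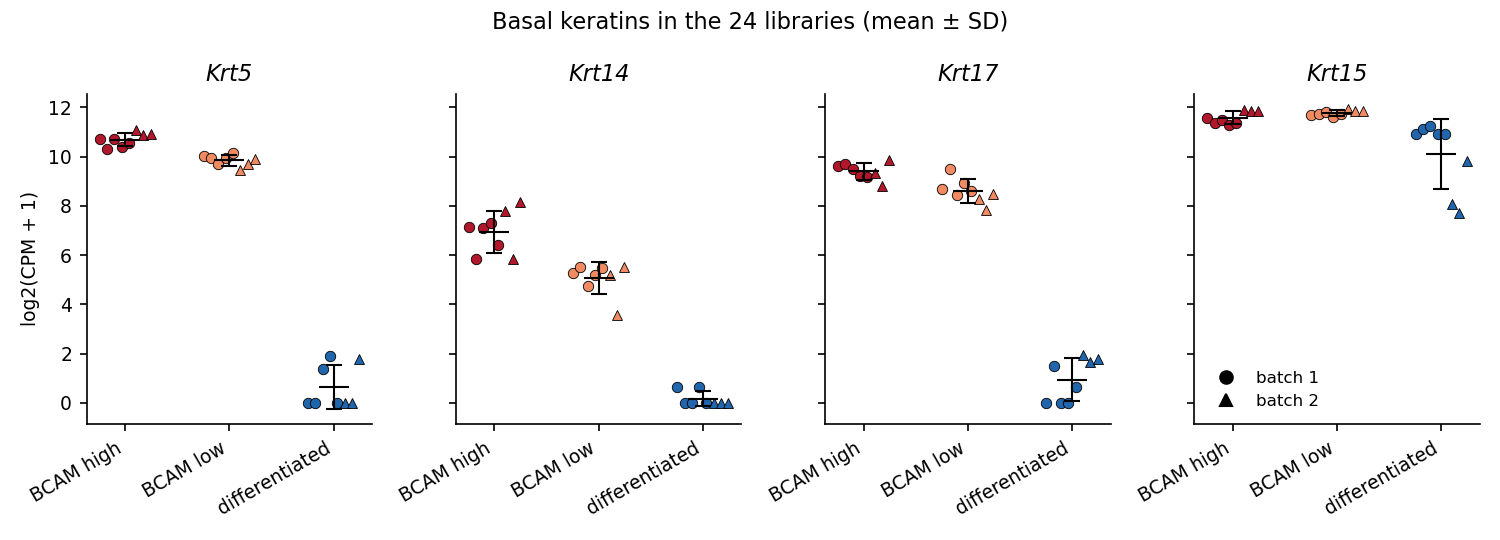
Levels of Krt5, Krt14, Krt17 and Krt15 in each of the 24 libraries as log2(CPM + 1), with circles for batch 1, triangles for batch 2 and bars for the mean ± SD of 8 libraries per group. BCAM high lies wholly above BCAM low for Krt5 and Krt14; in differentiated libraries Krt5, Krt14 and Krt17 lie near 0, while Krt15 stays at 1902 to 2413 CPM in batch 1.

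Ratios taken within a library do not depend on its scaling, and they set Krt15 apart from the other members. Relative to Krt15, the other 3 were all higher in BCAM high, and relative to Krt5, Krt17 did not differ beyond its spread. Krt15 was 3.07-fold Krt5 in BCAM high (geometric mean, range 2.66 to 3.81) and 6.02-fold in BCAM low (4.77 to 8.72). The ranges did not overlap, and the difference of the log2 ratio was -0.97 (exact two-sided permutation test within batches, BH-adjusted p = 6.94e-04 over 7 ratios, n = 8 and 8; the smallest p it allows is 3.97e-04). With protein-coding transcripts only, the mean log2 ratio of Krt15 to Krt5 fell from 1.62 to 1.11 in BCAM high. In BCAM low it fell from 2.59 to 2.17. Krt14 was 3.77% of Krt15 in BCAM high (1.51% to 7.14%) and 0.940% in BCAM low (0.258% to 1.33%), again without overlap, a log2 difference of 2.01 (exact permutation test, BH-adjusted p = 6.94e-04). Krt17 was 19.7% of Krt15 in BCAM high and 10.1% in BCAM low, a log2 difference of 0.96 (exact permutation test, BH-adjusted p = 6.94e-04), with 6 of 8 BCAM high libraries above all of BCAM low.

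Krt14 also differed relative to the other members that were higher. It was 11.6% of Krt5 in BCAM high and 5.66% in BCAM low (log2 difference 1.03, exact permutation test, BH-adjusted p = 0.0153), and 19.2% of Krt17 against 9.28% (1.05, exact permutation test, BH-adjusted p = 0.0106). In each case the groups overlapped. The ratio of Krt17 to Krt5 was 60.3% in BCAM high and 61.0% in BCAM low, a log2 difference of -0.01 (exact permutation test, BH-adjusted p = 0.940), with libraries from 35.4% to 98.3% and from 39.8% to 109%. The 3 type I members together were 3.81-fold Krt5 in BCAM high and 6.72-fold in BCAM low, and these ranges did not overlap (log2 difference -0.82, exact permutation test, BH-adjusted p = 6.94e-04).

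**Figure D2:**
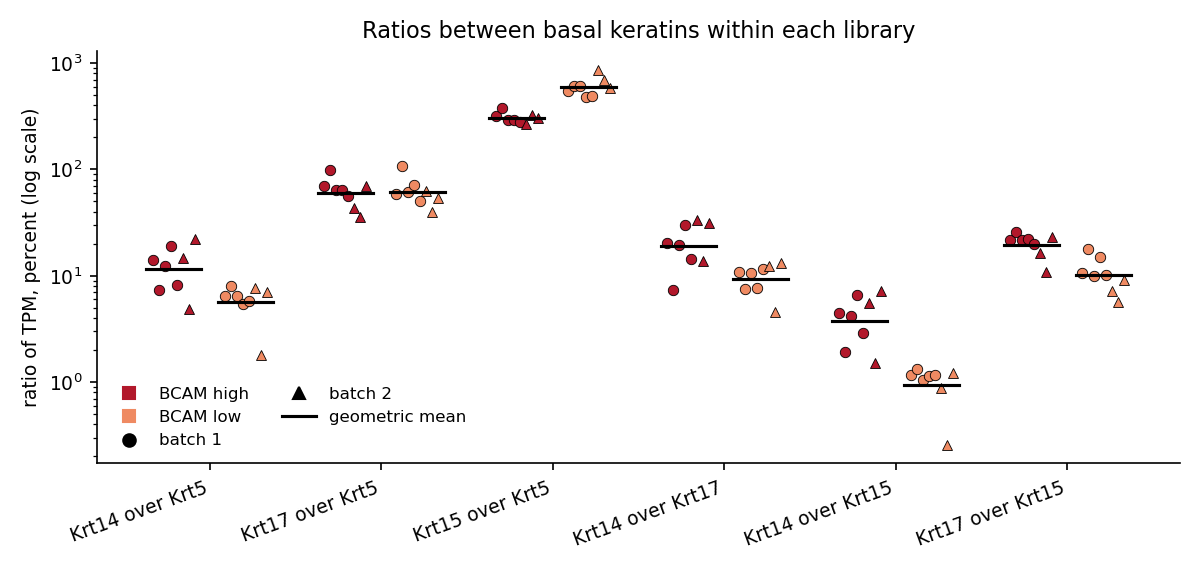
Ratios between basal keratins within each BCAM high and BCAM low library, as percent of TPM on a log axis, with circles for batch 1, triangles for batch 2 and lines for geometric means. The groups do not overlap for Krt15 over Krt5 (307% against 602%) and Krt14 over Krt15 (3.77% against 0.940%), and lie on each other for Krt17 over Krt5 (60.3% against 61.0%).

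In the differentiated group, Krt5, Krt14 and Krt17 were almost absent and Krt15 was not. All 4 members were called higher in both BCAM groups, as were 19.4% of all genes in BCAM high and 16.3% in BCAM low. No BCAM library overlapped a differentiated one for any of the 4, in CPM or in TPM. In TPM, 14.2% of genes showed this pattern for BCAM high and 5.10% for BCAM low. On that scale the median of all genes was 0.75 higher in BCAM high than in differentiated (log2, pseudocount 0.1). For BCAM low it was 0.48 higher. Both comparisons share the differentiated libraries. Krt5 summed to 14 counts over the 8 differentiated libraries, with 5 libraries at 0 and a highest level of 2.78 CPM, against 47143 counts in BCAM high and 26169 in BCAM low. The log2 fold changes were 10.79 (SE 0.41) for BCAM high and 9.95 (SE 0.40) for BCAM low (edgeR, adjusted p = 1.70e-15 and 1.20e-14). Krt17 summed to 20 counts, with 3 libraries at 0 and a highest level of 2.82 CPM, and its log2 fold changes were 9.01 (SE 0.39) and 8.22 (SE 0.39) (edgeR, adjusted p = 2.70e-14 and 2.26e-13). Those of Krt17 moved with the batch, from 10.49 and 9.90 in batch 1 alone to 8.07 and 6.89 in batch 2 alone, and were 9.60 and 8.80 without differentiated 6 and 7. Those of Krt5 without these libraries were 10.35 and 9.51. Krt14 had 2 counts in the whole group and 6 libraries at 0. Its ratio of summed counts over scaled totals was 1077 for BCAM high (exact 95% conditional binomial interval 298 to 8896) and 274 for BCAM low (75.8 to 2269), intervals that cover counting error only (edgeR, adjusted p = 2.25e-11 and 8.20e-09). Both counts were in batch 1, and in batch 2 alone Krt14 was called for BCAM high but not for BCAM low (edgeR, adjusted p = 0.0117 and 0.0623).

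Krt15 in the differentiated group fell into levels that followed the batch. It stood at 1943, 2246, 2413, 1902 and 1916 CPM in differentiated 1 to 5 and at 266, 211 and 914 in differentiated 6 to 8. The batch 1 libraries lay below every BCAM library but within reach of them, and those of batch 2 lay far below. The batch difference was -2.17 (log2, SE 0.30; edgeR on group-and-batch means, adjusted p = 2.62e-05), where 20.1% of all genes were called. In BCAM high and BCAM low the batch difference of Krt15 was 0.46 (SE 0.27) and 0.18 (SE 0.27), neither called (edgeR, adjusted p = 0.349 and 0.751), where 8.04% and 11.1% of all genes were called.

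Over all libraries the log2 fold change of Krt15 from differentiated was 1.20 (SE 0.37) for BCAM high and 1.36 (SE 0.37) for BCAM low (edgeR, adjusted p = 0.0126 and 0.00671). In batch 1 alone the values were 0.38 and 0.68, and in batch 2 alone 3.02 and 3.03, all called. Without differentiated 6 and 7, the libraries lowest in Krt15, they were 0.68 and 0.86, and both were called. The difference changed from batch 1 to batch 2 by 2.63 (SE 0.40) for BCAM high and 2.34 (SE 0.40) for BCAM low (edgeR interaction, adjusted p = 1.48e-04 and 3.74e-04), where 8.69% and 11.4% of all genes were called. Differentiated 6 and 7 were also the libraries with the least secretory and the most repeat-like RNA given above, and their Krt19 was 154 and 210 TPM. Their thyroid markers summed to 14680 and 27960 TPM, beside 14660 in differentiated 8, which held more Krt15. The part of these in the Krt15 values was not tested.

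The Krt15 RNA of differentiated libraries came with almost no RNA of the other members. Per count of Krt5 there were 1.85 counts of Krt15 in BCAM high and 3.64 in BCAM low, without correction for transcript length. The differentiated libraries of batch 1 held 18511 counts of Krt15 beside 8 of Krt5, and those of batch 2 held 3187 beside 6. Of the other 6 basal cell markers listed, 5 (Trp63, Ngfr, Dlk2, Snai2 and Dapl1) averaged 0.116 to 1.75 TPM in differentiated libraries. The other, Pdpn, a membrane glycoprotein, kept 47.4 TPM there on average, against 393 in BCAM high and 238.5 in BCAM low. Between the transcripts of the gene, the protein-coding Krt15-201 held 88.5% of Krt15 counts in the median BCAM high library, 89.4% for BCAM low and 86.8% for differentiated. The rest was assigned to Krt15-202, annotated as a retained intron. The corresponding short transcript of Krt14, Krt14-202, annotated as a processed transcript, held 28.9% in BCAM high and 28.8% in BCAM low (medians), and up to 89.3% in 1 BCAM low library, so the split of Krt14 between its transcripts was uneven.

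Within the keratin family the members held 59.2% to 72.8% of all keratin TPM in BCAM high libraries. Their share was 42.4% to 60.0% in BCAM low libraries and 13.8% to 33.5% in differentiated ones. Krt5 made up 50.3% ± 7.87 of type II keratin TPM in BCAM high, compared with 25.2% ± 5.37 in BCAM low, and 0.0424% ± 0.0663 of it in differentiated libraries (SD, n = 8). The largest part of type II keratin TPM in BCAM low was on average Krt4, a keratin of suprabasal and hillock cells, at 29.1% ± 2.76 against 11.3% ± 2.25 in BCAM high, beside Krt8 at 21.0% ± 3.03 against 14.3% ± 2.33 (SD, n = 8). In BCAM low 7 and 8, both of batch 2, Krt5 held more than Krt4, 34.4% against 25.9% in replicate 7. In differentiated libraries Krt8 held 49.9% ± 6.34 and Krt7, a keratin of simple epithelia, 29.7% ± 1.66. On the type I side Krt15 held similar mean shares in the BCAM groups, 56.4% ± 5.08 in BCAM high and 55.3% ± 5.60 in BCAM low, and held 35.6% ± 9.42 in differentiated (SD, n = 8), with 19.7% and 22.3% in differentiated 7 and 6. The ratio of type I to type II keratin TPM was 2.72 ± 0.21, 2.77 ± 0.72 and 2.90 ± 0.42 in the 3 groups (SD, n = 8). These means hide an order of the BCAM groups that turned with the batch. In batch 1 the ratio was 2.47 to 3.02 in BCAM high and 2.14 to 2.42 in BCAM low. In batch 2 it was 2.64 to 3.03 in BCAM high and 3.02 to 3.88 in BCAM low.

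**Figure D3:**
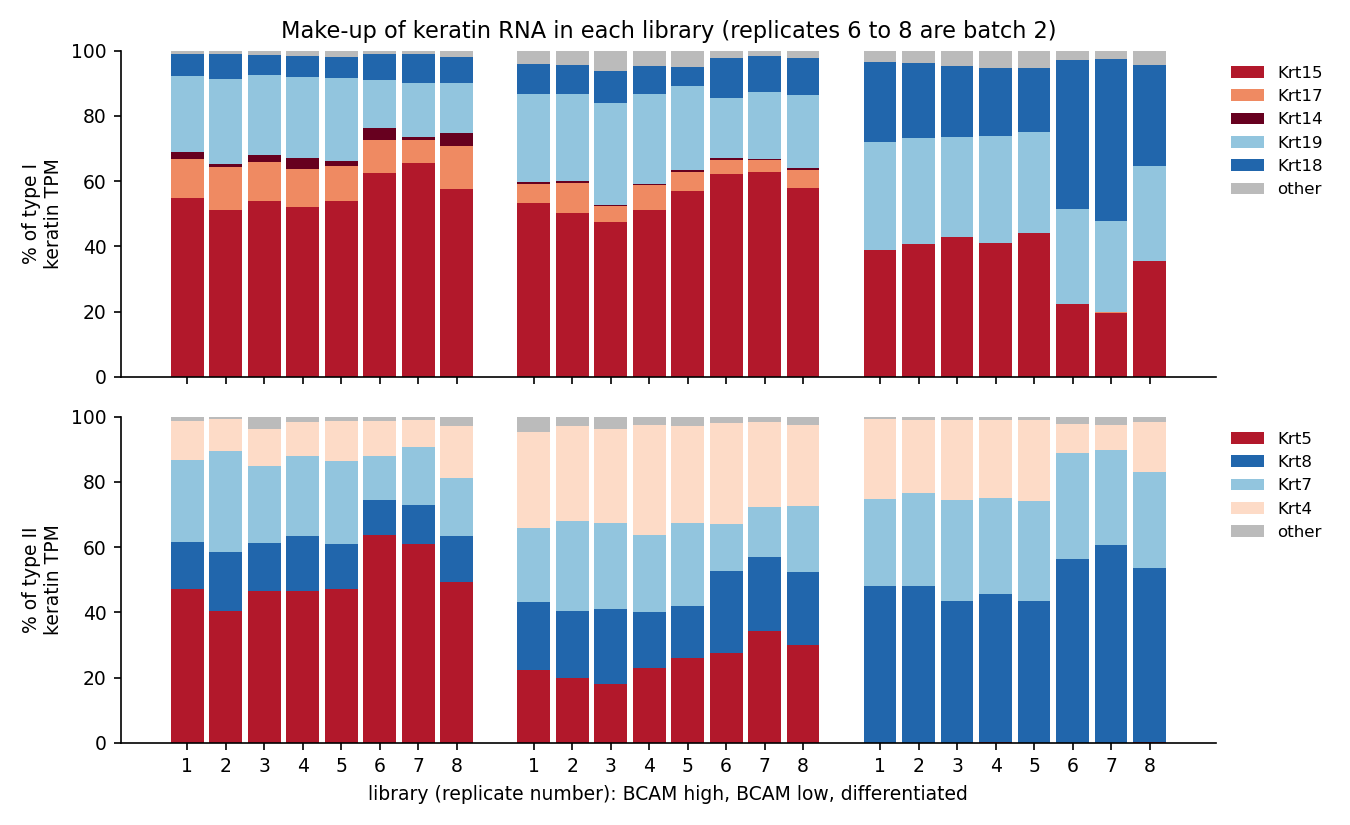
Share of each keratin in the type I (top) and type II (bottom) keratin TPM of every library, grouped as BCAM high, BCAM low and differentiated, with replicate numbers below. The mean share of Krt5 in type II is 50.3% with high BCAM, 25.2% with low BCAM and 0.0424% in differentiated libraries, while Krt15 stays the main or a large type I keratin in all libraries except differentiated 6 and 7.

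Of 50 other keratin genes in the table, 12 had enough counts to be tested. Between BCAM high and BCAM low, 4 of these 12 were called, and each was lower in BCAM high: Krt80 (log2 fold change -1.96), Krt23 (-1.70), Krt4 (-1.41) and Krt8 (-0.72). The count was 8 in batch 1 alone, 0 in batch 2 alone (edgeR; 2 of 12 at an unadjusted p under 0.05) and 7 without differentiated 6 and 7. Of all genes, 4.59% were called lower in BCAM high than in BCAM low. Krt13, the type I keratin that pairs with Krt4, was at -1.86 and just missed the threshold (edgeR, adjusted p = 0.0522), and Krt18 at -0.56, Krt19 at -0.45, Krt7 at -0.22, Krt6a at -0.89 and Krt10 at -0.17 were not called. Against differentiated, BCAM high was higher in 3 of the 12 (Krt75 5.82, Krt6a 4.46, Krt7 0.41) and lower in 4 (Krt23 -2.34, Krt80 -1.64, Krt18 -1.23, Krt8 -0.98); 22.0% of all genes were called lower in that comparison. BCAM low was higher in 6 (Krt75 5.85, Krt6a 5.35, Krt13 3.34, Krt4 1.49, Krt7 0.63, Krt19 0.58) and lower in Krt18 (-0.67), with 17.1% of all genes called lower. Without differentiated 6 and 7, the 7 keratins called in each of these comparisons became 8 for BCAM high and 9 for BCAM low. The skin keratin Krt1, at means of 0.302, 0.880 and 0.226 TPM in BCAM high, BCAM low and differentiated libraries, and Krt16, at 3.63, 1.20 and 0.129 TPM, were too low to be tested.

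**Figure D4:**
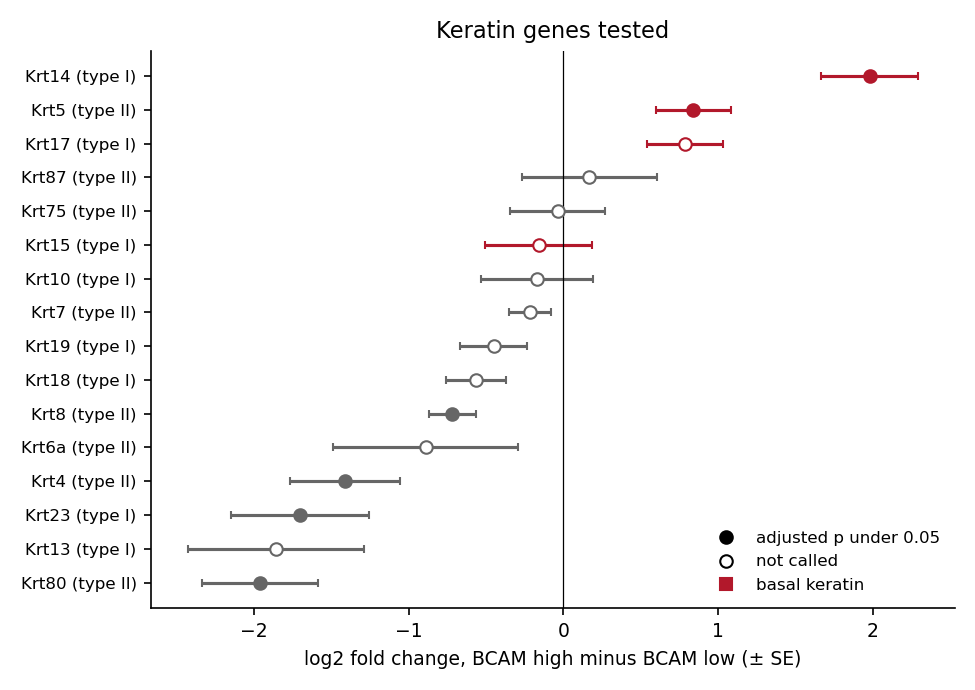
Log2 fold changes between BCAM high and BCAM low (± SE) for the 16 keratin genes tested, with the 4 basal keratins in red and filled points for adjusted p under 0.05 (edgeR). Krt14 and Krt5 are called higher in BCAM high, and Krt8, Krt4, Krt23 and Krt80 are called lower.

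Neighbouring genes ranged from as abundant as the members to hardly detected. Krt14 and Krt17, 48669 bases apart with Krt16 between them, had r of 0.95 over the 24 libraries, which share groups and batches. Krt19 starts 4882 bases beyond Krt15 and averaged 1017 ± 144 TPM in BCAM high, compared with 1196 ± 288 in BCAM low, and 604 ± 284 in differentiated libraries (SD, n = 8), whereas Krt13, 10192 bases on the other side, averaged 21.6, 100 and 9.10 TPM. Krt9, the gene 9916 bases from Krt14, held 5, 3 and 2 counts per group. Krt42, 1853 bases from Krt17, held 16, 9 and 1, and Krt16, 7315 bases on the other side of Krt17, held 132, 47 and 4, in the same order of groups as Krt14 and Krt17. Beside Krt5, Krt6a (a keratin of wounded epithelium) held 858, 1996 and 21 counts and Krt71, a hair follicle keratin, 0, 5 and 0. Of the next genes out, Krt6b held 10, 35 and 0 counts, Krt72 held 4, 2 and 6, Krt36 held 10, 24 and 8, and Eif1, a translation initiation factor beyond Krt42, averaged 723, 632 and 446 TPM.

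Beside the keratins, some basal cell markers differed between the BCAM groups. Of 15 tested, 4 were called, each higher in BCAM high: Dlk2 (log2 fold change 1.20), Snai2 (0.87), Cav1 (0.62) and Itgb4 (0.52). Bcam, the gene for which the groups are named, is among the 15 and was not called (0.39; edgeR, adjusted p = 0.462). Without differentiated 6 and 7, which enter this comparison through the shared spread, scaling, low-count filter and batch term of the fit, 10 of 15 were called. The median over the 15 was 0.52, beside 8.78e-05 over all genes, of which 2.43% were called higher in BCAM high. Against differentiated, 13 of 15 were called higher in each BCAM group, with medians of 3.71 and 3.19, and 14 in each without differentiated 6 and 7. Of all genes, 19.4% were called higher there in BCAM high and 16.3% in BCAM low. Dlk2 had 3 counts in the whole differentiated group, against 3544 in BCAM high and 1558 in BCAM low. Large changes among the others were those of Col17a1 (7.54 and 7.03), Dapl1 (6.98 and 6.47) and Trp63 (5.66 and 4.90).

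Keratin filaments end at hemidesmosomes, which hold the cell to the matrix, and at desmosomes, which hold it to its neighbours. The list of keratin partners named genes of these junctions and some outside them, such as Vim and Sfn. Of 21 partner genes tested, 5 differed between the BCAM groups, where 7.02% of all genes were called. The hemidesmosomal integrin Itgb4 (0.52) and the desmosomal plakophilin Pkp3 (0.47) were higher in BCAM high, and the cornified-envelope plakins Evpl (-1.08) and Ppl (-0.46) and the plakophilin Pkp2 (-0.87) were lower; without BCAM high 2 or BCAM low 7, and in either batch alone, the count was 3. Against differentiated, 16 of 21 were called higher in BCAM high and 15 in BCAM low, and Pkp2 was lower in both (-1.81 and -0.94). Without differentiated 6 and 7, 17 and 15 were called in either direction. Of all genes, 19.4% were called higher in BCAM high and 16.3% in BCAM low against differentiated. The largest rises were in Col17a1, the hemidesmosomal collagen (7.54 in BCAM high and 7.03 in BCAM low), the desmosomal cadherin Dsc3 (5.66 and 4.94) and the plakophilin Pkp1 (4.23 and 4.19). Medians over the list were 0.14, 1.40 and 1.33 in the 3 comparisons, beside 8.78e-05, 0.024 and 0.0231 over all genes.

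Among 20 tested transcription factors known to act on keratin genes, 5 were called between the BCAM groups. Sox15 (log2 fold change 0.98) and the AP-1 genes Fos (0.45) and Jun (0.43) were higher in BCAM high, and Grhl3 (-2.23) and Ovol1 (-1.40), factors of epithelial differentiation, were lower; without BCAM high 3, BCAM low 3 or BCAM low 7, and in batch 1 alone, the count was 3, and in batch 2 alone it was 0 (edgeR; 8 of 22 at an unadjusted p under 0.05). Trp63, which encodes p63, the factor basal cells depend on, averaged 139 TPM in BCAM high and 58.2 in BCAM low; its log2 fold change was 0.76 (SE 0.26), below that of Krt14 and near that of Krt5, and missed the threshold (edgeR, adjusted p = 0.0819). Against differentiated, 14 of 20 were higher in BCAM high and 10 in BCAM low, led by Trp63 and Sox15 (2.89 and 1.915), and Ovol1 was lower in BCAM high (-1.61). Without differentiated 6 and 7, 14 and 12 were called in either direction. Of all genes, 19.4% were called higher in BCAM high and 16.3% in BCAM low against differentiated, and 7.02% differed between the BCAM groups. Medians over the list were 0.12, 0.63 and 0.73 in the 3 comparisons, beside 8.78e-05, 0.024 and 0.0231 over all genes.

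The Krt5 promoter, from RefSeq (GRCm38.p6, chr15:101712906-101713155, minus strand, the 250 bases before the start), is shown because Krt5 and Trp63 had the same order of group means and because it holds a match to a p63 recognition motif, in capitals, 95 bases before the start.
Krt5: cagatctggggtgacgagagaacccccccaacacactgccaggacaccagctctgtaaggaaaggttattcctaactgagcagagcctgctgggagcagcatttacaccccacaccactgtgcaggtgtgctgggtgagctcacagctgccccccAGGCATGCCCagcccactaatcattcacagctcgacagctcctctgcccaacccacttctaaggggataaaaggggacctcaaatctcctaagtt
A match to the p63 motif on either strand occurred in 7.13% of 32851 promoters of this length. The TATA box letters TATAAA, searched on both strands, were not in this window and occurred in 12.4% of promoters. The AP-1 letters TGANTCA were likewise not found here, and 6.75% of promoters held them. For AP-2 the letters GCCNNNGGC were also missing, with 13.7% of promoters holding them, and for KLF and SP factors the letters CCNCNCCC, held by 45.9%. A match describes letters and not a bound site.

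Among all genes tested, those whose log2 CPM followed a member most closely over the 24 libraries were, for Krt5, Itgb4 (Pearson r = 0.99), Dlk2 (0.99) and Acaa1b (0.98), for Krt14, Bnc1 (0.97), Itgb4 (0.97) and Dlk2 (0.97), and for Krt17, Dlk2 (0.99) and Amotl1 (0.98). Krt15 was followed by other genes, Epas1 (0.98), Adh7 (0.98) and Pir (0.97), which like Krt15 kept RNA in the differentiated group: 135, 249 and 78.4 TPM, against 614, 695 and 214 in BCAM high. These correlations are descriptions over libraries that share groups and batches. Within the 16 BCAM libraries, with batch means subtracted, the closest were Csrnp1, Glul and Ifi202b for Krt5 (0.93, 0.93, 0.92), Sord, Procr and Bcl10 for Krt14 (0.92, 0.91, 0.90), Serpinb5, Gpc3 and Anxa8 for Krt17 (0.93, 0.93, 0.92) and Bend7, Clca3b and Pdzk1ip1 for Krt15 (0.89, 0.85, 0.85). Over the same 16 libraries Krt5, Krt14 and Krt17 had r of 0.79 to 0.86 with each other, and Krt15 had r of -0.45 to -0.39 with them; these too include the difference between the groups.

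RNA of other cell types moved with the BCAM groups beside these keratin differences. Called lower in BCAM high were 4 of 7 secretory, 5 of 7 ciliated and 4 of 6 tested suprabasal and hillock markers, beside 4.59% of all genes. Summed TPM of the lists ranged for secretory cells between 23760 and 39710 in BCAM high and between 26710 and 80540 in BCAM low. Among the secretory markers, Cyp2f2 went the other way, at means of 13490 and 11440 TPM. For ciliated cells the sum was 68.4 to 386 and 333 to 570. Most of it was Tppp3, at means of 217 and 385, while Foxj1 was at 0.982 and 8.07. For suprabasal and hillock cells the sum was 545 to 986 and 887 to 1929, where Krtdap was at 0 in BCAM low. Gland myoepithelial cells also express Krt14: their 6 markers, shared with smooth muscle, summed to 19.0 to 57.7 TPM in BCAM high, against 5.74 to 22.8 for BCAM low, with Acta2 at 15.2 and 2.89 TPM on average. Immune markers summed to 72.7 to 315 and 440 to 1619 TPM, most of it Lyz2, at means of 116 and 1053, while Ptprc was at 0.542 and 1.09. Fibroblast markers summed to 126 to 408 and 32.8 to 251, nearly all of it Dcn, at means of 255.6 and 129 (log2 fold change 0.85; edgeR, adjusted p = 0.0590, not called). The other 4 fibroblast markers averaged 0.118 to 1.28 TPM in BCAM high and 0.316 to 6.71 in BCAM low. The part of these cells in the keratin differences was not tested.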

How the data were processed

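Each of the 24 libraries came from 1000 sorted cells, made by the SmartSeq2 protocol for cell populations and sequenced as pairs of 38-base reads, per the labels' protocols. The deposited tables list estimated counts and TPM per transcript, per the file headers; the deposited estimated counts are not normalized, and the deposited TPM are scaled to transcript length and library. The submitters' processing notes name kallisto 46.1, Picard and the build GRCm39 without their order; the annotation release is not named there. Transcript identifiers without version were matched to GENCODE M21 (GRCm38), so printed coordinates may differ from the authors' annotation. Per gene, estimated counts were added up and rounded, and 12211 of 35855 genes passed edgeR's default low-count filter.

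The test was edgeR 4.0.16 (R 4.3.3), quasi-likelihood with TMM factors, over all 24 libraries with group and batch, Benjamini-Hochberg (BH) adjustment over all genes and a threshold of 0.05. A gene with 3 counts or fewer in a group has a ratio of summed counts in place of a fitted fold. Ratios between members used log2 TPM with exact permutations within batch, and the order of levels used exact sign flips. Scripts were tested on simulated data. Alternatives were DESeq2 1.42.0 (size factors, Wald test), no filter, limma 3.58.1 on log2(TPM + 0.1) and log2(TPM + 1), protein-coding transcripts only, no batch term, a replicate block, only the groups compared, each batch alone and each library left out. Read sharing was counted as exact 38-base windows of M21 transcripts, and coding sequences were read from the GRCm38 genome. Of the members, Krt5 had an entry for the start of its main transcript in the RefSeq promoter table.

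Named were the members, keratins called or on a fixed list, 2 protein-coding genes on either side of each member, the 3 genes most correlated with each member, and up to 4 called genes of each list with the largest change, with Trp63 and Bcam. A correlated gene is not reported here. The members and lists were chosen with earlier results of these data known.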

Additional observations from a re-analysis of the deposited data

Results flagged for a closer look

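In BCAM low, 1 library stood apart from the other 7 in several member values by a gap test, which flags about 1 in 20 groups by chance; 23 groups of values were examined. BCAM low 2 had the highest Krt17, 530.7 TPM, and the highest Krt17 relative to Krt5, 108.7%. BCAM low 7 had the lowest Krt14 relative to Krt5, 1.803%, and relative to Krt15, 0.2581%. It also held 424 TPM of the 3 parathyroid markers, against at most 1.85 in any other BCAM low library. The part of this in the Krt14 values was not tested.

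The difference between a BCAM group and the differentiated group changed with the batch for Krt15 and Krt17. For Krt15 it was larger in batch 2 by 2.63 for BCAM high and by 2.34 for BCAM low (log2; edgeR interaction, adjusted p = 1.48e-04 and 3.74e-04). For Krt17 the difference of BCAM low changed by -3.00 (edgeR interaction, adjusted p = 0.0240), resting on 4 counts in the 5 differentiated libraries of batch 1 and 16 counts in the 3 of batch 2; without differentiated 6, 7 or 8 it missed the threshold (edgeR, adjusted p up to 0.0697).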

How the results depend on the processing

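Of 306 values recomputed under alternatives other than leaving out 1 library, 274 had the same direction and side of the threshold (or stayed within 1.5 times for counts), and of 784 with 1 library left out, 759 did; the cause of the others was not tested. Krt5 between BCAM high and BCAM low missed the threshold with no filter (0.88), limma on log2(TPM + 0.1) (1.05), no batch term (0.85), batch 1 alone (0.60) and batch 2 alone (1.24), and ran from 0.77 to 0.89 with 1 library left out. Krt17 passed it with limma on log2(TPM + 1) (1.03), DESeq2's Wald test (0.79), only the 2 groups (0.79), batch 2 alone (1.18) and, added after seeing the data, without differentiated 6 and 7 (0.80), and ran from 0.68 to 0.94. Batch 2 alone lost Krt14 between the BCAM groups (2.62) and between BCAM low and differentiated (adjusted p = 0.0623). Krt15 between the BCAM groups turned to 0.072 under limma with either pseudocount. Same-numbered libraries correlated at 0.0315 to 0.173 between the BCAM groups after group and batch means were removed, over 0.1 in 3 of 8, so the numbers were not taken as pairs; with the replicate block Krt5 was 0.85 (edgeR, adjusted p = 0.076) and Krt17 0.80 (edgeR, adjusted p = 0.0492), and no other member's call changed. Krt17 over Krt5 turned to 0.035 in batch 1 alone (-0.12 to 0.10 with 1 library left out), Krt14 over Krt17 was 0.81 there (exact permutation test, BH-adjusted p = 0.0833), and the type I sum over Krt5 was -1.08 in batch 2 alone. The batch difference of Krt17 in BCAM high turned to 0.10 under limma on log2(TPM + 0.1) (-0.37 to 0.15 with 1 library left out), and that of Krt14 in BCAM low to 0.063 with protein-coding transcripts only (-0.72 to 0.10).

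Between the BCAM groups, other keratins called numbered 8 in batch 1 alone, 0 in batch 2 alone (edgeR; 2 of 12 at an unadjusted p under 0.05) and 7 without differentiated 6 and 7; partner genes 3 with no filter, limma and either batch alone (3 to 6 with 1 library left out); regulators 3 in batch 1 alone and 0 in batch 2 alone (edgeR; 8 of 22 at an unadjusted p under 0.05), 3 to 6 with 1 library left out; and basal markers 10 without differentiated 6 and 7. Against differentiated, other keratins numbered 11 for BCAM high with no filter and 4 for BCAM low in batch 2 alone, and regulators 16 for BCAM low under limma. Protein-coding transcripts alone widened the step from Krt14 to Krt17 in BCAM low from 3.43 to 4.61 (log2). With 2, 14 and 20 counts of Krt14, Krt5 and Krt17, depth limits any comparison within the differentiated group.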
